A study of Mus musculus with 2 samples.

Results

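Creatine kinases and the genes that supply creatine were described in long-read RNA sequencing of mouse gastrocnemius, the large muscle of the calf. The members were chosen by gene name: the kinases Ckm, Ckb, Ckmt1 and Ckmt2, the synthesis enzymes Gatm and Gamt, and the transporter Slc6a8. These 7 genes are part of 15622 annotated genes with at least 1 read in either library. They held 192 of 79323 transcript models in replicate 1 and 217 of 90517 in replicate 2. The series has 1 group: gastrocnemius tissue of 25-day-old male mice of the F1 hybrid strain B6CASTF1/J, with 2 biological replicates, no treatment given in the labels and 2 µg of RNA per library. The labels name an animal for each replicate but point both to 1 donor record, so whether the libraries come from separate animals is not settled by them. With 1 group there was no condition to compare, and each test compares these 2 libraries with counting error alone.

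Creatine kinases move a phosphate group between ATP and creatine, which lets a muscle fibre store and carry high-energy phosphate close to the myosin and calcium pumps that use it. Ckm and Ckb are the cytosolic forms, named for muscle and brain, and act as dimers. Ckmt2 and Ckmt1 are the sarcomeric and ubiquitous forms of the mitochondrial intermembrane space, where they form octamers. Gatm makes guanidinoacetate from arginine and glycine, largely in kidney, and Gamt methylates it to creatine, largely in liver. Muscle takes up most of its creatine from blood through Slc6a8.

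The 4 kinases share the stretch of coding sequence around the active-site cysteine. It is shown from the GENCODE M21 transcript of each gene, 5′ to 3′, because the genes are near relatives in sequence that received very unequal numbers of reads. Capitals mark the cysteine codon.
Ckm, exon 7, chr7:19420164-19420202, plus strand: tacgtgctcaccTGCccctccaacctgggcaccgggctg
Ckb, exon 7, chr12:111669919-111669957, minus strand: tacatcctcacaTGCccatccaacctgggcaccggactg
Ckmt2, exon 8, chr13:91858250-91858288, minus strand: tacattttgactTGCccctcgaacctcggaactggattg
Ckmt1, exon 7, chr2:121362732-121362770, plus strand: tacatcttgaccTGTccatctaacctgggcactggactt
The cysteine is codon 283 of Ckm and Ckb and codon 317 of Ckmt2 and Ckmt1, which carry a longer N-terminal part. Over the whole coding sequence Ckm and Ckb had 76.5% identical bases and Ckmt1 and Ckmt2 72.7%, while pairs across the cytosolic and mitochondrial forms had 67.1% to 68.1%. The longest run of identical bases was 20 between Ckm and Ckb and 39 between Ckmt1 and Ckmt2, far shorter than the transcripts of 1472 to 2742 nt. The annotated pseudogenes Ckb-ps1 and Ckb-ps2 had 0 reads in both libraries.

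The pairs also share their exon layout. The 7 coding segments of Ckm and Ckb have equal lengths in the same order, 193, 155, 133, 172, 124, 190 and 176 nt. Ckmt2 and Ckmt1 share 8 of 9 coding segments, 152, 199, 96, 222, 86, 124, 135 and 126 nt, and differ in the last one, 117 nt in Ckmt2 and 114 nt in Ckmt1. The 124-nt exon occurs in all 4 genes.

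**Figure D1:**
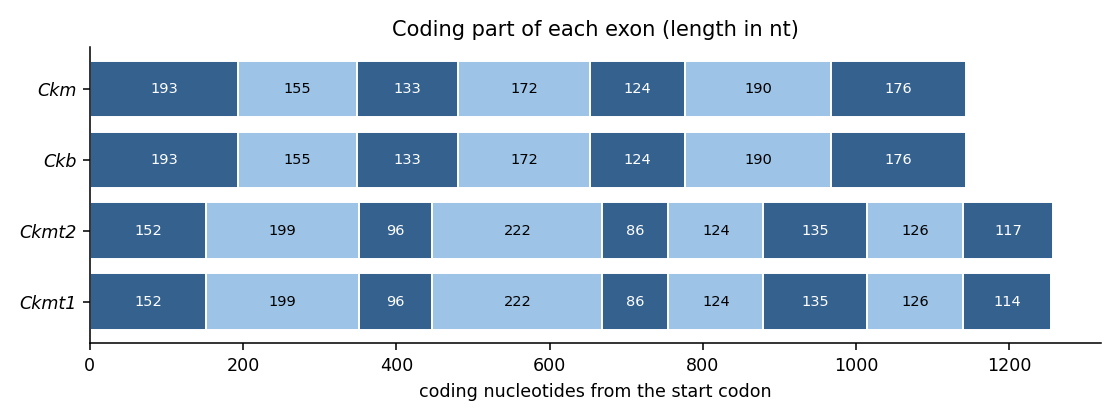
Coding length of each exon in nucleotides for the main transcript of the 4 creatine kinases, drawn in transcript order from the start codon, with neighbouring exons in alternating colours. Ckm and Ckb have the same 7 lengths, and Ckmt2 and Ckmt1 differ only in the last segment, 117 and 114 nt.

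Replicate 1 held 1215785 reads in annotated genes and replicate 2 held 1549606. A CPM here sums all transcript classes of a gene and is set against 1000000 annotated-gene reads of its library. The limit that a count of 0 allows, 3 reads, is therefore 2.47 CPM in the shallower replicate 1 and 1.94 CPM in replicate 2. The libraries differed in many genes: reads on incomplete models made up 9.28% in replicate 1 and 15.6% in replicate 2, and reads of the genomic class 2.30% and 6.86%. Fast-fibre markers (8 of 8 detected) reached a sum of 244758 CPM in replicate 1, against 129521 CPM in replicate 2, and slow-fibre markers (8 of 8) one of 2719 and 7834 CPM. The difference between the libraries in each sum rests largely on 1 gene, Atp2a1 for fast fibre and Tnnt1 for slow fibre. Without Atp2a1 the fast-fibre sum was 93242 and 105984 CPM, which turns its direction. Of all 8 fast-fibre markers 5, Atp2a1 among them, were called higher and 3 (Tnnc2, Mylpf and Tnni2) lower in replicate 1. Without Tnnt1, 7347 of whose 7588 reads in replicate 2 were incomplete, the slow-fibre sum was 2144 and 2937 CPM. Of the slow-fibre markers 5 were called lower and 3 (Myh7, Atp2a2 and Casq2) higher in replicate 1, and over annotated transcripts 3 each way of 6. For comparison with both lists, 26.3% of all 8692 genes tested were called higher and 17% lower in replicate 1. Over annotated transcripts 51% of all genes were called. Of other cell types, fibroblast markers (4 of 4 detected) summed to 4118 and 705 CPM, Schwann markers (6 of 6) to 152 and 505 CPM, smooth muscle markers (5 of 5) to 170 and 121 CPM and endothelial markers (4 of 4) to 103 and 54.9 CPM. Cardiac markers summed to 4.11 and 1.29 CPM, with Nppa, Nppb and Mybpc3 at 0. Neuronal markers had 0 and 1 read, with Snap25, Nefl and Syn1 at 0, and none of the 5 markers of kidney, liver and pancreas had a read. In bulk tissue, fewer cells of a type and less RNA per cell cannot be told apart, and the part of these other cells in the members' reads was not tested.

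Ckm was among the most abundant transcripts of the muscle. Ckm (ENSMUSG00000030399.2, chromosome 7, 19404776 to 19422841, plus strand) had 68718 CPM in replicate 1, from 83546 reads, and 69403 CPM in replicate 2, from 107548 reads. Its rank among all genes was 3 in replicate 1, behind Atp2a1, the calcium pump of fast fibres, and Acta1, skeletal actin, and 1 in replicate 2. Its mean was 69061 ± 485 CPM (SD, n = 2), so in CPM the libraries lay close together, while Atp2a1 had 151516 and 23536 CPM. Of the 184211 and 36472 Atp2a1 reads, 0 were on annotated transcripts in either library. Only 5255 and 3448 were incomplete and 6 and 126 genomic, so most were on unannotated chains. The log2 ratio of Ckm in replicate 1 over replicate 2 was -0.01 and did not pass the threshold (adjusted p = 0.058, two-sided Fisher exact test across all genes with Benjamini-Hochberg adjustment).

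Ckmt2, which couples creatine to the ATP made by mitochondria, came next. Ckmt2 (ENSMUSG00000021622.3, chromosome 13, 91853387 to 91876885, minus strand) had 1946 and 2529 reads, or 1601 CPM in replicate 1 and 1632 CPM in replicate 2 (mean 1616 ± 22.2 CPM, SD, n = 2). Its rank was 46 in replicate 1 and 70 in replicate 2. The ratio of Ckm to Ckmt2 was 42.9 in replicate 1 and 42.5 in replicate 2, so it hardly moved between the libraries. The log2 ratio of Ckmt2 was -0.03 (adjusted p = 0.66, Fisher exact test).

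The other kinases were rare beside Ckm and Ckmt2. Ckb (ENSMUSG00000001270.9, chromosome 12, 111669361 to 111672338, minus strand) had 21 and 30 reads, or 17.3 CPM in replicate 1 and 19.4 CPM in replicate 2 (mean 18.3 ± 1.48 CPM, SD, n = 2; log2 ratio -0.16, adjusted p = 0.87, Fisher exact test). Ckm had 3978 times the Ckb reads in replicate 1 and 3585 times in replicate 2. The rank of Ckb was 4417 of 13389 detected genes in replicate 1 and 3555 of 14122 in replicate 2. Ckmt1 (ENSMUSG00000000308.14, chromosome 2, 121357714 to 121363737, plus strand) had 0 reads in replicate 1 and 1 read in replicate 2, so Ckmt1 was at or under the limit of detection and was too rare to be tested.

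Among all reads of the 4 kinases, Ckm held 97.70% in replicate 1 (exact 95% Clopper-Pearson interval 97.60% to 97.80%) and 97.68% in replicate 2 (97.58% to 97.76%). Ckmt2 held 2.28% (2.18% to 2.38%) and 2.30% (2.21% to 2.39%). Ckb held 0.0246% (0.0152% to 0.0375%) and 0.0272% (0.0184% to 0.0389%). The intervals of each kinase overlapped between the libraries. For Ckmt1, 0 of 85513 kinase reads in replicate 1 allows a share of up to 0.00351%, and 1 of 110108 in replicate 2 is 0.000908%. Intervals and limits cover counting error only, since amplified reads are not independent molecules.

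Of the synthesis genes, Gamt was the more abundant. Gamt (ENSMUSG00000020150.13, chromosome 10, 80258151 to 80261012, minus strand) had 48 and 93 reads, or 39.5 CPM in replicate 1 and 60.0 CPM in replicate 2 (mean 49.7 ± 14.5 CPM, SD, n = 2). Gatm (ENSMUSG00000027199.14, chromosome 2, 122594467 to 122611303, minus strand) had 6 and 5 reads, or 4.94 CPM in replicate 1 and 3.23 CPM in replicate 2 (mean 4.08 ± 1.21 CPM). The enzyme of the last step thus had 8 times the reads of the enzyme of the first step in replicate 1 and 18.6 times in replicate 2. The intervals of the 2 genes did not overlap in either library.

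Slc6a8, the creatine transporter, was low beside the kinase it feeds. Slc6a8 (ENSMUSG00000019558.14, chromosome X, 73673150 to 73682502, plus strand) had 23 and 21 reads, or 18.9 CPM in replicate 1 and 13.6 CPM in replicate 2 (mean 16.2 ± 3.79 CPM, SD, n = 2; log2 ratio 0.45, adjusted p = 0.42, Fisher exact test). Its exact 95% intervals, 12.0 to 28.4 CPM in replicate 1 and 8.39 to 20.7 CPM in replicate 2, overlapped those of Ckb in both libraries.

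By mean CPM the order was Ckm, Ckmt2, Gamt, Ckb, Slc6a8, Gatm and Ckmt1, and in replicate 1 alone Slc6a8 stood above Ckb. Neighbours whose exact intervals overlapped were Ckb and Slc6a8 in both libraries, Ckb and Gatm in replicate 1, and Gatm and Ckmt1 in both. Divided by the annotated length of the main transcript, the same order held, with mean levels of 25186 CPM per kb for Ckm, 1088 for Ckmt2, 50.4 for Gamt, 12.4 for Ckb, 4.90 for Slc6a8, 1.71 for Gatm and 0.199 for Ckmt1. The Ckm value depends on its assumed ends: unannotated Ckm chains of 7 junctions were deposited with ends at 19411063 and 19421584, which would make Ckm-203 1447 nt long and its level 47727 CPM per kb. The 7 genes together took 7.04% of reads in annotated genes in replicate 1 and 7.11% in replicate 2.

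**Figure D2:**
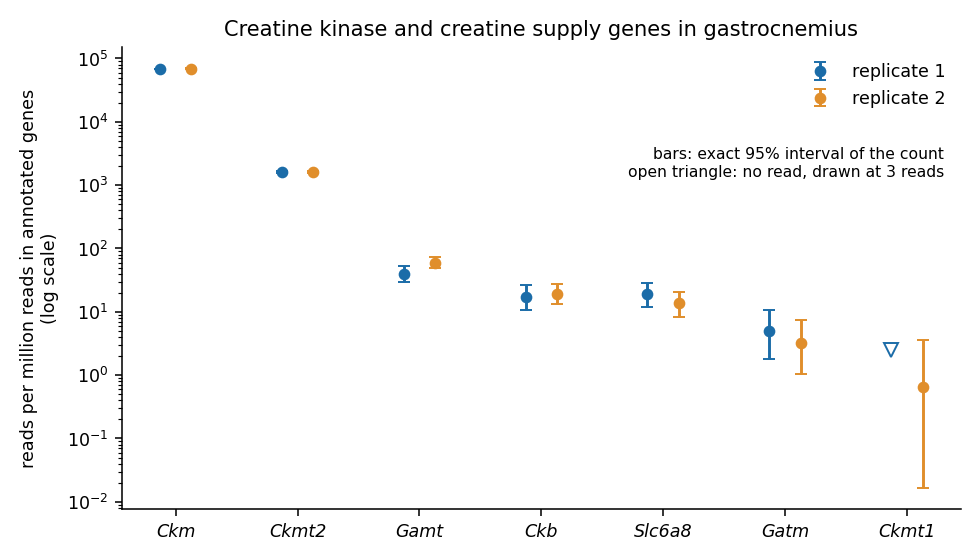
Level of each gene in reads per 1000000 reads in annotated genes, on a log axis, with replicate 1 left of replicate 2, bars for the exact 95% interval of the count and an open triangle at 3 reads where a library had none. Ckm lies at 68718 and 69403, Ckmt2 at 1601 and 1632, and Gamt, Ckb, Slc6a8 and Gatm between 3.23 and 60.0 CPM.

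Gamt was the only member past the threshold between the libraries. Its log2 ratio of replicate 1 over replicate 2 was -0.59 (adjusted p = 0.042, two-sided Fisher exact test with Benjamini-Hochberg adjustment), lower in replicate 1. Of 7 members 6 reached the minimum of 10 reads, and 1 was called, with 0 higher and 1 lower in replicate 1. Over all 8692 genes tested, 43.3% were called, 26.3% higher and 17% lower in replicate 1, so nothing is read from 1 call among 6 members. The median log2 ratio was -0.02 over the 6 members and 0.27 over all genes tested. Counted on annotated transcripts alone, the Gamt ratio was -0.08 and no longer past the threshold (adjusted p = 0.88, Fisher exact test), while Slc6a8, Ckmt2 and Ckm passed it and were higher in replicate 1, as 3 of 6 members where 51% of all genes were called. Scaling by edgeR's TMM, which lowered the median of all genes to 0.02, put Gamt, Ckmt2 and Ckm all past the threshold and lower in replicate 1, with 40.8% of all genes called, and moved the split of all calls to 44.9% higher and 55.1% lower, against 60.7% and 39.3% without it. With a coefficient of variation of 0.2 between animals assumed in edgeR's exact test, 0 of 6 members and 14.9% of all genes were called (by the Fisher test, Gamt and Ckm had an unadjusted p of 0.018 and 0.026).

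Nearest in level to each member, by the distance of log2(CPM + 1) over the 2 libraries, the genes were as follows. Beside Ckm stood Acta1, at a distance of 0.09, then Tnnc2 and Atp2a1 at 1.59 and 1.93. Beside Ckmt2 stood Atp5a1, a subunit of the ATP synthase (0.16), Ubb, a ubiquitin gene (0.20), and Uqcrc1, a core subunit of respiratory complex III (0.32). The low members had neighbours at the same or nearly the same counts: Shisa5, Wnk1 and Erp29 for Ckb, Apopt1, 0610009B22Rik and Eif6 for Gamt, and Oard1, Sharpin and Tecpr2 for Slc6a8. With 2 libraries such distances only list genes of like abundance.

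Most reads of the kinases were assigned to annotated transcripts. This is a match of the splice chain and does not show where each read began or ended. Ckm-203, an 8-exon transcript with an annotated length of 2742 nt, held 78920 of 83546 Ckm reads in replicate 1 and 98266 of 107548 in replicate 2. Ckmt2-201, with 10 exons and 1486 nt, held 1844 of 1946 and 2325 of 2529. Ckb-201, with 8 exons, held 20 of 21 and 26 of 30, and the 1 Ckmt1 read was the 9-exon Ckmt1-201. All reads of Gatm, 6 and 5, were the 9-exon Gatm-201.

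Gamt and Slc6a8 had a smaller share of reads on annotated transcripts than Ckm and Ckmt2. Annotated transcripts held 64.6% of Gamt reads in replicate 1 (31 of 48, exact 95% interval 49.5% to 77.8%) and 48.4% in replicate 2 (45 of 93, 37.9% to 59.0%). In Slc6a8 they held 56.5% in replicate 1 (13 of 23, 34.5% to 76.8%) and 23.8% in replicate 2 (5 of 21, 8.22% to 47.2%). The intervals of the libraries overlapped for both genes. For comparison, the annotated share of Ckm was 94.5% and 91.4% and that of Ckmt2 94.8% and 91.9%. There the intervals of the libraries did not overlap, and replicate 1 was the higher. Over all annotated genes the share was 65.8% in replicate 1 and 70.6% in replicate 2, so replicate 2 was the higher. That share lay inside the Gamt and Slc6a8 intervals in replicate 1 and above both in replicate 2. Ckm and Ckmt2 lay above it in both libraries.

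The reads outside annotated transcripts had a different form in each gene. In Slc6a8, 3 reads of replicate 1 and 10 of replicate 2 were of the genomic class, all unspliced and inside the last exon, and spliced reads numbered 20 and 11. In Gamt, 12 and 33 reads formed 1 incomplete model that held only the last junction. Its deposited model starts at 80259289, the annotated start of the retained-intron transcript Gamt-203, and so runs through exon 4 and intron 4 as well. A deposited model gives 1 start for all its reads, so where each read began is not known. In Ckm the incomplete class held 4139 reads in replicate 1 and 8628 in replicate 2, of which 2313 and 5092 held only the last junction.

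**Figure D3:**
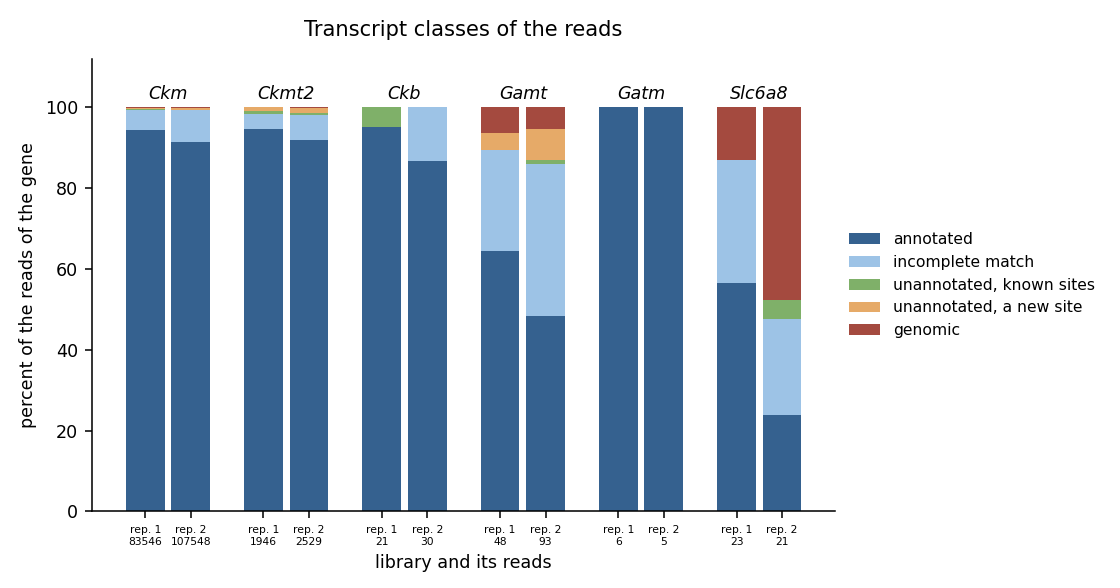
Percent of the reads of 6 genes in each transcript class, replicate 1 left of replicate 2, with the number of reads under each bar; Ckmt1, with 1 read, is not drawn. Annotated transcripts hold 91.4% to 94.8% of Ckm and Ckmt2 reads, 64.6% and 48.4% of Gamt reads and 56.5% and 23.8% of Slc6a8 reads.

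Isoform use did not pass the threshold between the libraries in any member tested. Outside the incomplete and genomic classes, Ckm-203 held 99.39% of Ckm reads in replicate 1 and 99.36% in replicate 2. Ckmt2-201 held 98.3% and 98.1%, Ckb-201 95.2% and 100%, and Gamt-202 87.9% and 83.0%. Of 4 members with 20 or more such reads per library 0 were called (adjusted p = 1 in each, Fisher exact test with Benjamini-Hochberg adjustment; the lowest unadjusted p was 0.366), and 2.15% of the 2793 genes tested were. Over all classes Ckm and Ckmt2 were called, with 27.3% of all genes.

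In Ckm and Ckmt2, nearly all spliced reads held the last annotated junction, and fewer held the first. Of the spliced Ckm reads, the last annotated junction was held by 99.95% in replicate 1 and 99.87% in replicate 2, and the first by 95.0% (exact 95% interval 94.9% to 95.2%) and 93.0% (92.9% to 93.2%). The whole chain of 7 junctions was held by 94.8% and 92.7%. In Ckmt2 the first of 9 junctions was held by 96.7% (95.8% to 97.4%) and 95.0% (94.0% to 95.8%). In both genes replicate 1 held the first junction in a larger share of reads than replicate 2.

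In Ckm most of the loss lay between the last junction and the one before it. Junction 7, the last one, was held by 83233 reads in replicate 1, against 105917 in replicate 2, while junction 6 was held by 80853 and 100807. From there to the 5′ end the counts fell further in smaller steps, to 79146 and 98655 at junction 1. In Gamt the step lay at the same place, before the last junction: 43 of 45 spliced reads held junction 5 in replicate 1 and 84 of 88 in replicate 2, while 33 and 54 held junction 4 and 31 and 49 held junction 1. Ckb had 21 of 21 spliced reads with the first junction in replicate 1 and 26 of 30 in replicate 2, and Gatm 6 of 6 and 5 of 5. Slc6a8 had 13 of 20 and 5 of 11.

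**Figure D4:**
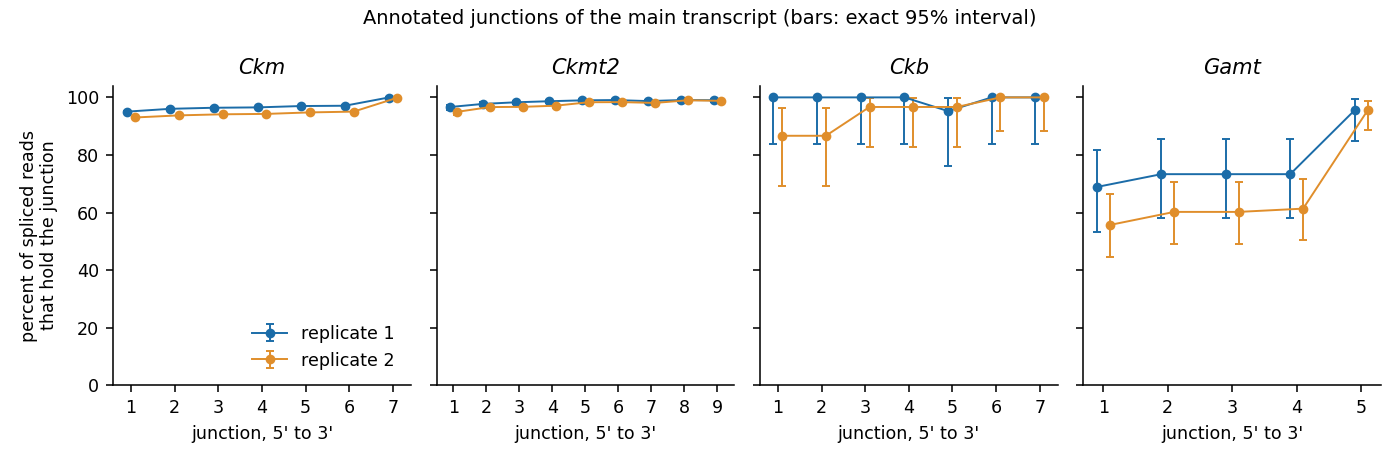
Percent of spliced reads that hold each annotated junction of the main transcript, numbered from the 5′ end, with replicate 1 left of replicate 2 and bars for the exact 95% interval. Ckm and Ckmt2 stay at 93.0% or more at every junction, and Gamt drops before its last junction, with 95.6% and 95.5% there and 73.3% and 61.4% at junction 4.

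Skipping of exons in the kinases was rare. Ckm-201, the annotated transcript without exon 2, which holds the start codon of Ckm-203, was seen in 8 reads of replicate 1 and 11 of replicate 2, 0.0101% and 0.0112% of reads that could show it. Exon 1 was joined to exon 5 in 11 and 22 reads and to exon 8 in 5 and 20 reads. In Ckmt2, skipping of exon 9, which keeps the reading frame, had 5 and 1 reads, or 0.260% and 0.0407%. Retention of Ckmt2 intron 7 inside a longer model had 4 and 8 reads. No other single exon of Ckm or Ckmt2 was skipped in more than 0.104% of the reads that could show it in either library.

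Unannotated spliced chains were many in Ckm but held few reads. Ckm had 181 such chains, 57 of them in both libraries, with 476 reads in replicate 1 and 627 in replicate 2, of which 401 and 526 lay in the shared chains. Ckmt2 had 38 chains, 7 in both libraries, with 31 and 46 reads. Gamt had 4 chains, 1 in both, with 2 and 8 reads. Ckb and Slc6a8 had 1 each, seen in 1 library, and Gatm and Ckmt1 had none.

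The most frequent unannotated site of Ckm lengthened exon 2 at its 5′ end. An acceptor 190 nt upstream of the annotated one, at position 19413929 of chromosome 7, had 107 reads in replicate 1 and 93 in replicate 2, or 0.135% (exact 95% interval 0.111% to 0.163%) and 0.0942% (0.0760% to 0.115%) of the junction's reads. The added bases lie before the start codon. A donor 5 nt inside exon 1, also before the start codon, had 66 and 41 reads, 0.0833% and 0.0415%. Intron 1 also held unannotated exons seen in both libraries: 142 nt at 19413103 to 19413244 (11 and 5 reads), 125 nt at 19413322 to 19413446 (8 and 12), 82 nt at 19413365 to 19413446 (2 and 1) and 143 nt at 19413606 to 19413748 (2 and 2). The 5′ part of Ckm thus held the most frequent unannotated splicing of the gene.

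Other shifted sites lay in coding exons, and the bases they remove can be read from the annotated transcript. Each line below joins the last 15 bases of an exon to the first 15 of the next, with the bases lost at the shifted site in capitals; they are shown because they tell whether the reading frame is kept.
Ckm, exons 6 and 7, chr7:19419548-19420121, plus strand: gtgggcctgcagaagATTGAGgagatcttc
Ckm, exons 5 and 6, chr7:19416876-19419453, plus strand: tgcccGTGGCATCTGgcacaacgacaacaa
Ckmt2, exons 9 and 10, chr13:91853634-91855752, minus strand: atcggcagatcagagGTTGAGCTTGTTCAG
The acceptor 6 nt inside Ckm exon 7 was used by 26 reads of replicate 1 and 18 of replicate 2 and keeps the frame. The donor 10 nt inside Ckm exon 5 had 25 and 18 reads and does not. The acceptor 15 nt inside the last exon of Ckmt2, at position 91853633 of chromosome 13, had 6 and 11 reads, 0.311% (exact 95% interval 0.114% to 0.676%) and 0.444% (0.222% to 0.793%), and keeps the frame. In all, 13 Ckm sites within 15 nt inside an exon, coding or not, were seen in both libraries. Of these, 10 had the usual GT after a donor or AG before an acceptor, and so had both such Ckmt2 sites. The other Ckm sites were donors followed by GC. Among them was the most used of the 13, the donor 5 nt inside exon 1, with 66 and 41 reads. Gamt had an unannotated donor 198 nt inside exon 1, with 2 and 3 reads. These were 6.06% (exact 95% interval 0.743% to 20.2%) and 5.77% (1.21% to 15.9%) of the junction's reads.

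Donors moved a few bases into the intron differed between the libraries. Within 12 nt of the annotated donors of Ckm they had 28 reads in replicate 1 and 196 in replicate 2, or 0.496 and 2.78 for each 10000 reads of annotated junctions. Donors moved into the exon went the other way, with 118 and 82 reads, or 2.09 and 1.16, and so did acceptors moved into the exon, with 71 and 46 reads, or 1.26 and 0.652. No Ckm acceptor was moved into the intron within 12 nt. In all other annotated genes, donors moved into the intron had 4.37 in replicate 1 and 12.7 in replicate 2 for each 10000, donors moved into the exon 2.04 and 2.16, and acceptors moved into the exon 6.34 and 7.53. The last rate was above that of Ckm in both libraries and, unlike in Ckm, higher in replicate 2. Replicate 2 was thus the higher at intronic donors in Ckm and in the other genes, and the source of this was not tested.

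**Figure D5:**
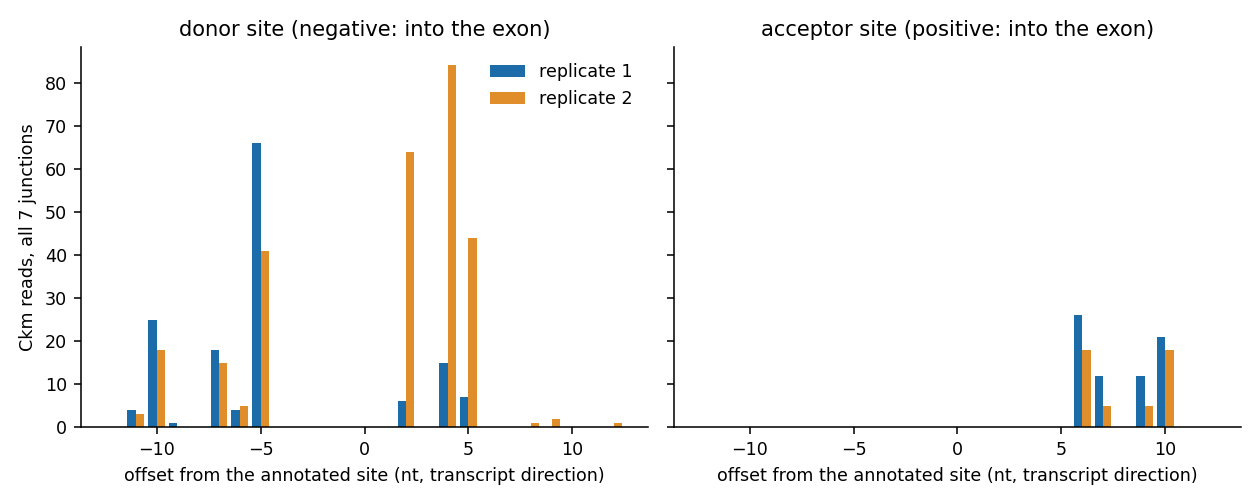
Ckm reads at unannotated donors (left) and acceptors (right) within 12 nt of an annotated site, by offset in nt in the direction of transcription, summed over 7 junctions, with replicate 1 left of replicate 2 at each offset. Positive donor offsets, into the intron, sum to 28 and 196 reads, and positive acceptor offsets, into the exon, to 71 and 46.

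Overlapping genes added few reads. The antisense gene A930016O22Rik, on the strand opposite Ckm, had 17 and 18 reads, all of the genomic class and single-exon. Strand use in the assignment of reads is not stated, so these reads cannot be told apart from Ckm reads with certainty. Strc, which overlaps the end of Ckmt1, had 1 and 0 reads, and 1700119I11Rik, inside Ckmt2, had 0 and 0. Near Gamt, Ndufs7, a subunit of respiratory complex I on the other strand and 1357 nt away, had 784 and 3872 reads, and 1 of these in replicate 2 ran into Gamt by 1094 nt. Dazap1, 474 nt from Gamt, had 17 and 22 reads, Bcap31, 3676 nt from Slc6a8, had 53 and 101, Mark4, 1934 nt from Ckm, had 15 and 12, and Ppip5k1, 2318 nt from Ckmt1, had 27 and 11. Klc3 near Ckm and Rasgrf2 near Ckmt2 had none. None of the members' neighbours had a level near that of Ckm.

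The promoters of 6 members, 250 bases before to 50 after the RefSeq start on GRCm38.p6, were searched on both strands. The E-box CANNTG, bound by myogenic factors, was found once in Ckm, 4 times in Ckmt2, once in Gamt, once in Gatm and once in 1 of 2 Ckmt1 promoters, and 72.3% of all 32851 promoters hold it. The TATA box TATAAA was found in Ckb, overlapping a MEF2 box, and in that Ckmt1 promoter, against 13.6% and, for the MEF2 box, 3.19% of all promoters. The GC box GGGCGG occurred 4 times in Gamt and once in Ckmt2 (35.7% of all promoters), the MEF3 motif TCAGGTT in Gatm and the other Ckmt1 promoter (4.07%) and the ERR element AAGGTCA in the Ckmt1 promoter with the TATA box (4.72%). The CArG box was found in none of the 6 (1.63%). The start of Ckm-203 in M21 lies 69 nt upstream of the RefSeq start. These matches describe the windows only.

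Partners of the kinases were split in both directions, and their levels ran from Atp2a1 down to Myom3, an M-band protein with 14.8 and 7.74 CPM. The list of 12 genes held the ADP/ATP and phosphate carriers, the porins of the outer membrane, the calcium pump and M-band proteins to which kinases bind, and the enzymes Ak1 and Ampd1, which also handle adenine nucleotides. All 12 were tested, and 5 were higher and 5 lower in replicate 1, where 26.3% and 17% of all genes were, with a median log2 ratio of 0.27, close to that of all genes. Atp2a1 (151516 and 23536 CPM), Ak1, adenylate kinase (5855 and 4523 CPM), and Myom2, an M-band protein (1336 and 629 CPM), were higher in replicate 1, together with Myom1 and Ampd1. Slc25a4, the main ADP/ATP carrier of muscle, was lower (9604 and 18454 CPM), together with Slc25a5, Slc25a3, Vdac2 and Vdac3. Over annotated transcripts alone 9 were tested, where 51% of all genes were called. Of these, 4 were higher (Ak1, Myom1, Myom2 and Vdac1), 2 lower (Slc25a4 and Slc25a5) and 3 did not pass. Without the incomplete and genomic classes 6 of 11 were higher and 5 lower, where 48.4% of all genes were called. Under DESeq2's size factors, which left 40.7% of all genes called, Ak1 and Myom1 were no longer past the threshold, and with a coefficient of variation of 0.2 in edgeR's exact test 1 was higher and 2 lower. For each read of Slc25a4 there were 7.15 Ckm reads in replicate 1 and 3.76 in replicate 2.

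Genes of methyl and arginine supply were low. Of 23 genes of the methionine cycle, one-carbon and arginine metabolism, 19 had a read, and Mat1a, Arg2, Slc7a1 and Slc16a12 had none. Of 15 tested, 4 were higher in replicate 1 (among them Oat, Mat2a and Ahcyl1), 1 was lower (Ahcyl2) and 10 did not pass. Over all genes tested, 26.3% were called higher and 17% lower in replicate 1. The median log2 ratio of the list was 0.75, against 0.27 over all genes. All 4 Ahcyl2 reads in replicate 1 and 24 of 25 in replicate 2 were of the genomic class, and without the incomplete and genomic classes no gene of the list was called lower. Oat, ornithine aminotransferase, had 148 and 87.8 CPM, and Mat2a, which makes the methyl donor S-adenosylmethionine outside liver, 137 and 65.8 CPM. Adk, adenosine kinase, had 79.0 and 83.9 CPM, and Mat2b, the regulatory partner of Mat2a, 79.0 and 72.9 CPM, and neither passed (adjusted p = 0.79 and 0.70, Fisher exact test).

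Known regulators of creatine kinase genes were all detected, 15 of 15. Of 14 tested, 5 were higher in replicate 1 (among them Mef2a, Mef2c, Mef2d and Ppargc1a), 1 was lower (Esrra) and 8 did not pass, among them Myod1, Myog and Myf6, and the median log2 ratio was 0.53. The 6 calls among 14 are close to the 43.3% of all genes. Ppargc1a was not past the threshold over annotated transcripts alone, or without the incomplete and genomic classes. Mef2c, a MADS-box factor of muscle, had 160 and 78.1 CPM, and Myf6, a myogenic factor of mature fibres, 83.9 and 76.8 CPM. Mef2d had 115 and 45.2 CPM. Esrra, a nuclear receptor of energy metabolism, had 149 and 1953 CPM, but 140 of its 181 reads in replicate 1 and 3003 of 3027 in replicate 2 were of the genomic class. Over annotated transcripts alone Esrra had 32 and 14 reads and was higher in replicate 1.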

How the data were processed

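Per the file headers, the authors deposited whole-number read counts per transcript model for each library, made with TALON on mm10 and GENCODE M21, each library alone and with no normalization. No header or label used here states the aligner, read filters or strand use. TALON classes a model as annotated, incomplete (part of an annotated chain), a new combination of known sites, a chain with a new site, or genomic. Libraries held 1292409 reads in replicate 1 and 1703457 in replicate 2, of which 1215785 and 1549606 lay in annotated genes, spike-ins left out.

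Counts were summed per gene and scaled to CPM. Log2 ratios are of CPM + 1, which understates the change of low genes. With 1 group no dispersion could be estimated, so two-sided Fisher exact tests (scipy 1.17.1) were run for each gene whose reads summed to at least 10, with Benjamini-Hochberg adjustment over all genes at 0.05. These tests cover counting error only. Main transcript shares were tested likewise at 20 or more reads per library. Intervals are exact Clopper-Pearson. Junctions came from the deposited exon chains, in which 1 start and end stand for all reads of a model. The tests were checked on simulated data.

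Named were all members, their leading models and shared unannotated chains, genes within 5 kb, the 3 nearest in level, and the 4 most abundant of each list. Genes named to account for a count, and individual shifted or skipped junctions, were chosen after their values were seen. Some list genes are not reported here. Members and lists were chosen with earlier results of these data known. Alternatives were other classes, filters, scalings (TMM in edgeR 4.0.16, size factors in DESeq2 1.42.0) and assumed dispersions.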

Additional observations from a re-analysis of the deposited data

Results flagged for a closer look

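Unannotated models on the strand opposite a member were outside the counts above. Opposite Slc6a8 they held 20 reads in replicate 1 and 25 in replicate 2, above the limit of 3 reads. Most lay in 1 chain of 3 exons, with 19 and 21 reads, on the minus strand of chromosome X from 73670404 to 73673150 in replicate 1 and from 73670357 to 73673150 in replicate 2, which overlaps Slc6a8 by 1 base. Opposite Ckm, replicate 2 held 10 reads of 1 unspliced model inside intron 4, at 19416548 to 19416660 of chromosome 7, and replicate 1 held 0.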

How the results depend on the processing

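No paired analysis was possible because the series has 1 group. The summed level of the 7 genes, 70766 CPM, was 96520 over annotated transcripts only, 80031 without incomplete and genomic classes, 72798 over models with 2 or more reads, 67803 per 1000000 of all mouse reads 26344 per kb and, with the shorter Ckm length (chosen after seeing the data), 48884 per kb, and 70399 to 71132 leaving out either replicate. The Ckm share of kinase reads, 97.69%, was 97.65% without incomplete and genomic classes, 97.71% over models with 2 or more reads 95.81% per kb and 97.75% per kb with the shorter Ckm length, and 97.68% to 97.70% leaving out either replicate. Genes called between the libraries numbered 3766, against 1296 with an assumed coefficient of variation of 0.2 and 13 with 0.4. Main transcript shares were called in 60 genes and, over all classes, in 1014. Over annotated transcripts only, log2 ratios reversed to 0.13 in Ckm, 0.12 in Ckmt2 and 0.070 in Ckb. Without incomplete and genomic classes the ratios were -0.16 in Ckm and -0.18 in Ckmt2. Both were then called lower in replicate 1, with 48.4% of all genes called. Under TMM they were -0.31 and -0.32, and under DESeq2's size factors -0.33 and -0.35. With a minimum of 20 reads Ckm passed at -0.01, with 52.9% of all genes called. Gamt lost its call over annotated transcripts only, without incomplete and genomic classes, with no filter on low counts, and under both assumed dispersions. The causes were not tested. The order of mean levels was the same in each of the 7 settings of level. Depth limits Ckmt1, Gatm, Ckb and Slc6a8 most.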
